A study of Mus musculus with 8 samples.

Results

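The Reg3 genes encode small secreted C-type lectins, proteins best known as antimicrobial and tissue-protective products of the gut epithelium and of the injured pancreas. Reg3g, Reg3b and Reg3a were selected by their gene names in the deposited tables, because of the place of Reg3g in the deposited comparison of A2A antagonist-treated cells with vehicle-treated cells. Reg3g and Reg3b, 2 of the 3 genes, were listed among the 31406 genes of the table that holds the 8 libraries. Reg3a was listed in neither deposited table, so no value can be given for it. The antagonist libraries were on 1 side of the comparison that led to the choice of these genes, so their levels of Reg3g are not independent of that choice. The same holds for any difference measured against these libraries.

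The cells were primary microglial cultures from the striatum of new-born wild-type C57/BL6 mice, kept for 15 days in culture. Lipopolysaccharide (LPS) and interferon-γ were given to every culture as activators, over 48 h in all, and the ligands followed at 24, 32 and 40 h. The first 4 libraries, numbered 1 to 4, came from cells that received SCH 58261, an antagonist of the adenosine A2A receptor, at 200 nM (antagonist group). The other 4 came from cells that received SCH 58261 and 2-Cl-IB-MECA, an agonist of the adenosine A3 receptor, each at 200 nM (dual group). Both groups therefore carried the A2A antagonist and both were activated, and the comparison between them asks what the A3 agonist added. Samples were grouped by their titles, with which the count column names go together. The treatment field of the labels goes against both: 2-Cl-IB-MECA appears there for the samples whose titles give SCH 58261 alone, and is missing for those whose titles give both ligands. The direction of every difference given here rests on the titles. The labels do not say whether the libraries of a group came from separate cultures, litters or days, so the p-values measure the spread between libraries, which may be technical.

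Total counts ranged from 32630602 to 45878639 per library. The 12 fixed markers of microglia were all listed and summed to 1185 to 1255 CPM (counts scaled to the library size) in the antagonist group and to 1128 to 1208 CPM in the dual group. Within that list, Cx3cr1 had 92.7 ± 6.12 CPM (SD, n = 4) in the antagonist group, whereas P2ry12 had 1.66 ± 0.216 CPM (SD, n = 4). Markers of other cells were abundant, since the 8 astrocyte markers summed to 6087 to 6376 CPM in the antagonist group and to 6189 to 6624 CPM in the dual group. The sums of the 6 fibroblast markers were 2379 to 2652 CPM and 2369 to 2986 CPM. Foxj1, a gene of ciliated ependymal cells, had 231 ± 9.82 CPM (SD, n = 4) in the antagonist group. The other markers of the ependymal and choroid plexus list were low there. Their means were 1.31 CPM for Ccdc153, 0.687 for Tmem212, 0.193 for Ttr and 0.125 for Kl. The libraries thus held RNA of several cell types, and the cell that made the Reg3g transcripts was not identified. The study's methods report a high purity of microglia, measured on cells with antibodies against CD11b. The marker sums are of RNA and give no share of cells to set beside it. In such bulk samples fewer cells of a type and less RNA per cell cannot be told apart.

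Reg3 proteins bind carbohydrate structures of bacteria through a single lectin domain. Their genes are known to respond to interleukin-22, interleukin-17 and cytokines of the interleukin-6 family, which act through the signal transducer gp130 and the transcription factor STAT3, and to bacterial products sensed through the adaptor MyD88. Extl3, a glycosyltransferase of the exostosin family, has been described as a receptor for Reg proteins. The genes lie close together on mouse chromosome 6 and are similar in sequence, so whether a read can be assigned to 1 of them matters for the counts.

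Reg3g (ENSMUSG00000030017) spans chr6:78466269-78468872 on the minus strand (GRCm38). The start of Reg3g is 98.2 kb from Reg3b (ENSMUSG00000071356, chr6:78370657-78373466, plus strand) and 88.2 kb from Reg3a (chr6:78380709-78383827, plus strand). No other annotated gene overlaps any of the 3 on either strand. The fourth exon, which lies wholly in the coding sequence, is shown for the 3 genes to make visible how far a read can separate them. It has 138 bases in each gene (Reg3g, chr6:78467476-78467613, minus strand, Reg3b, chr6:78372088-78372225, plus strand, Reg3a, chr6:78382214-78382351, plus strand), and capitals mark the 45 bases at which the 3 genes are not all the same.
Reg3g: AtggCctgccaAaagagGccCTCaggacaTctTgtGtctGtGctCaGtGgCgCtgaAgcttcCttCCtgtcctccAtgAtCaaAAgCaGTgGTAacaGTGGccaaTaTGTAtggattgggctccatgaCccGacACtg
Reg3b: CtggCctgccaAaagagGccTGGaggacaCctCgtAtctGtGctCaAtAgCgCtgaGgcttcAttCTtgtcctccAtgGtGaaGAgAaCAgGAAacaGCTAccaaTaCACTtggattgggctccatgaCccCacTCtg
Reg3a: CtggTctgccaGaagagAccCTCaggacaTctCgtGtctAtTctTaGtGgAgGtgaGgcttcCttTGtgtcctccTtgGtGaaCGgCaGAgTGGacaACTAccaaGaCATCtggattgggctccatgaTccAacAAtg

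The differing bases are spread along the exon. Over this exon Reg3g and Reg3b share 79.7% of the bases, Reg3g and Reg3a 76.1%, and Reg3b and Reg3a 75.4%. Over the whole aligned coding sequence the identities are 76.0%, 72.8% and 73.9%. The longest stretch that the transcripts of Reg3g and Reg3b share is 35 bases long and lies in the coding part of exon 2, at chr6:78468503-78468537 in Reg3g and chr6:78371230-78371264 in Reg3b. It is shown as the longest run of bases that cannot separate the pair. The sequenced reads were longer than this stretch.
Shared stretch: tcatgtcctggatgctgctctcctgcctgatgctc
Of the 2164 distinct 31-base words in the annotated Reg3g transcripts, 5 (0.231%) occur in another gene, and all 5 lie in this stretch of Reg3b. Reg3a shares 0 of its 795 words with any other gene.

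Reg3g, the lectin known for killing Gram-positive bacteria at the surface of the small intestine, was detected in all 8 libraries at a low level. In the antagonist group, libraries 1 to 4 had 135, 165, 147 and 142 counts, which correspond to 3.50, 3.63, 3.52 and 3.13 CPM after scaling with the trimmed mean of M-values (TMM). In the dual group, libraries 1 to 4 had 130, 203, 235 and 140 counts, or 3.98, 5.34, 5.12 and 3.16 CPM. Libraries 1, 2 and 3 of the dual group were above every antagonist library, whereas library 4 lay inside the antagonist range, so the groups overlapped. Among all genes tested, 7.42% had groups that did not overlap.

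**Figure D1:**
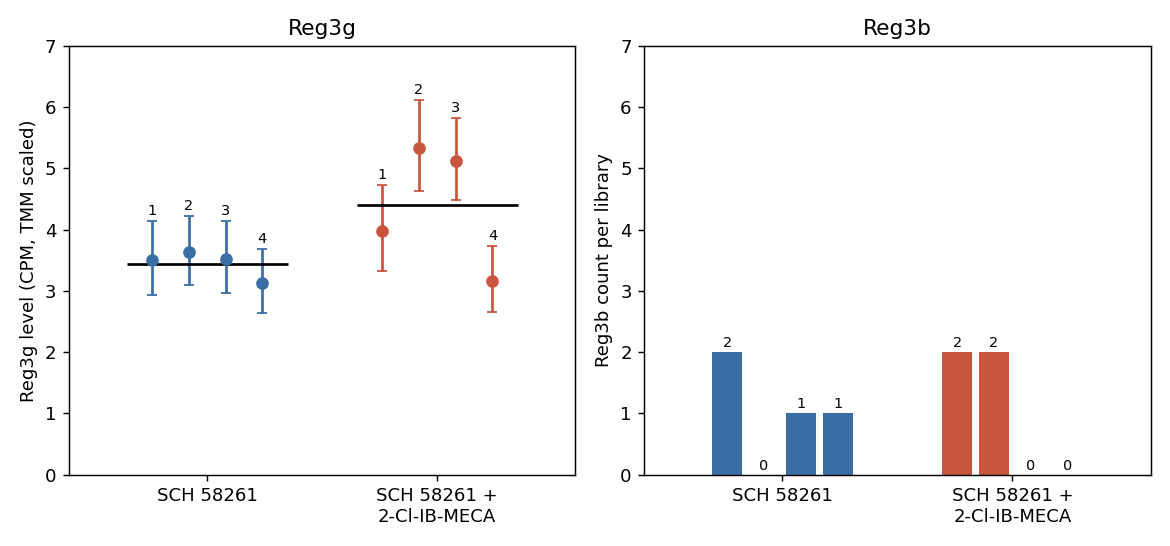
The left panel plots Reg3g in CPM (TMM scaled) for each library, numbered by replicate, with exact Poisson 95% intervals as bars and the mean of the group as a line. The antagonist libraries lie between 3.13 and 3.63 CPM and the dual libraries between 3.16 and 5.34 CPM. The right panel plots the Reg3b count of each library in the same order, which is never above 2.

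The mean level of Reg3g was 3.44 ± 0.219 CPM (SD, n = 4) in the antagonist group and 4.40 ± 1.02 CPM (SD, n = 4) in the dual group, a difference of 0.957 CPM. The log2 fold change was 0.35 (SE 0.15, 95% confidence interval 0.05 to 0.66), or 1.28-fold with an interval of 1.04 to 1.58. The edgeR quasi-likelihood test gave an unadjusted p-value of 0.0250 and a Benjamini-Hochberg adjusted p-value of 0.303, so Reg3g was not called at 0.05. The two-sided exact permutation test of its CPM gave p = 0.143 over 70 arrangements, where 0.0286 is the smallest value possible. Of the 18756 genes tested, 39 (0.208%) were called, 9 of them (0.0480%) higher in the dual group. This count fell to 0 in edgeR without library 4 of the antagonist group or library 3 of the dual group (1802 and 2092 genes at an unadjusted p-value under 0.05). It was 5 without library 2, 6 without library 3 and 172 without library 1 of the antagonist group. At an unadjusted p-value under 0.05, as for Reg3g, 5.98% of the genes tested were higher in the dual group. A log2 fold change at or above that of Reg3g was found for 5.34% of all genes tested. Among the 632 genes within 0.25 log2 CPM of Reg3g in level, it was found for 1.42%, and the median SE there was 0.12. As Reg3g was chosen from a comparison that held the antagonist libraries, these shares describe its place and are not a test.

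The spread of Reg3g differed between the groups in size. The coefficient of variation was 6.36% among the antagonist libraries, where counting alone gives 8.26%, and 23.1% among the dual libraries, where counting alone gives 7.69%. The exact Poisson 95% interval was 2.66 to 3.73 CPM in library 4 of the dual group, against 4.63 to 6.12 CPM in library 2 and 4.49 to 5.82 CPM in library 3. The last 2 intervals lie above the intervals of all 4 antagonist libraries, whose highest upper bound was 4.23 CPM. These intervals cover counting error only. The difference in spread was not tested.

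Leaving out 1 library at a time moved the Reg3g log2 fold change between 0.25 (without library 2 of the dual group) and 0.49 (without library 4 of the dual group). Without library 3 of the dual group it was 0.27. The adjusted edgeR p-values ranged from 0.113 to 0.566 over these fits, and none passed 0.05. In 5 of the 8 fits the unadjusted p-value stayed under 0.05. The difference was positive under all 13 alternative settings.

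**Figure D2:**
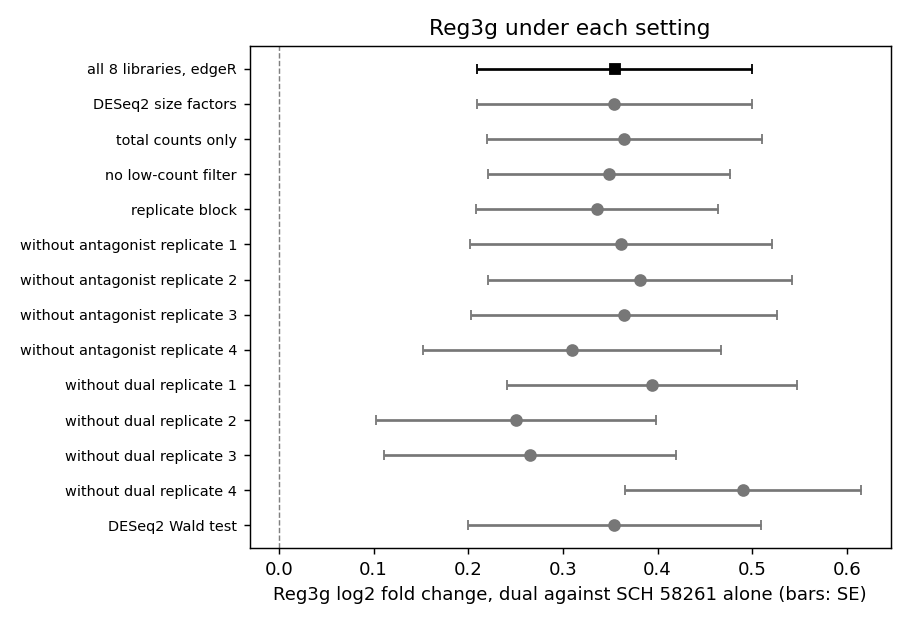
Each point is the log2 fold change of Reg3g (dual against antagonist group, x axis) under 1 setting, with bars for the SE and a square for the fit to all 8 libraries. All values lie above 0, from 0.25 to 0.49, and the extremes are the fits without library 2 and without library 4 of the dual group.

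Per gene length, the deposited values of Reg3g were 1.62 ± 0.103 FPKM (counts scaled to gene length and library size, SD, n = 4) in the antagonist group and 2.06 ± 0.478 FPKM (SD, n = 4) in the dual group. On this scale 39.9% of the 17867 listed protein-coding genes were below Reg3g, with a range of 37.2% to 43.9% over the libraries. The deposited length of Reg3g, 2114 bases, takes in a transcript of 2089 bases that retains an intron. The coding transcript has 771 bases in 6 exons. If all counts came from the coding transcript, the levels would be 4.43 ± 0.283 FPKM (SD, n = 4) and 5.66 ± 1.31 FPKM (SD, n = 4). The counts do not say which of the transcripts was present.

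Reg3b, known as pancreatitis-associated protein for its rise in acute pancreatitis, was close to the limit of detection. It had 2, 0, 1 and 1 counts in libraries 1 to 4 of the antagonist group and 2, 2, 0 and 0 in libraries 1 to 4 of the dual group. Each group thus held 4 counts, and zeros occurred in both. The mean was 0.0244 ± 0.0212 CPM (SD, n = 4) in the antagonist group and 0.0285 ± 0.0331 CPM in the dual group, with an exact permutation p = 0.83. Reg3b did not pass the filter on low counts, and in the edgeR fit without the filter its adjusted p-value was 0.995. No fold is given at 0 to 2 counts per library. For the pooled counts the exact Poisson 95% interval was 0.00633 to 0.0595 CPM in the antagonist group and 0.00679 to 0.0638 CPM in the dual group. Of the counts of Reg3g and Reg3b together, 1297 of 1305 fell on Reg3g, which is 99.4% (exact binomial 95% interval 98.8% to 99.7%).

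The remaining members of the Reg family gave no more than a handful of counts. Reg1, 46.2 kb from the start of Reg3g in the same cluster, had 2, 0, 0 and 1 counts in libraries 1 to 4 of the antagonist group and 0 in every library of the dual group (exact permutation p = 0.429). Its 31-base words occur in other genes in 5.70% of cases, so these counts are uncertain. Reg4, which lies apart from the cluster on chromosome 3 and marks secretory cells of the gut, had 1, 1, 5 and 0 counts against 3, 2, 4 and 0 (exact permutation p = 0.714). Reg2 and Reg3d were not listed in the table of the 8 libraries. Thus 1 of the 7 Reg genes passed the filter on low counts.

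The cytokines known to induce Reg3 genes were described next, as a fixed list of 12 genes. Of these, 11 were listed, 8 passed the filter and 0 were called by edgeR. Their median log2 fold change was -0.08, with 7 values below 0 and 1 above, beside a median of 0.0038 over all genes tested. Il1b, a product of activated myeloid cells, had 720 ± 26.9 CPM (SD, n = 4) in the antagonist group and 701 ± 14.2 CPM (SD, n = 4) in the dual group. Il6, the founding member of the gp130 cytokines, was at 88.3 ± 6.20 CPM (SD, n = 4) in the antagonist group and 87.1 ± 5.91 CPM in the dual group, a log2 fold change of -0.018. Clcf1, another gp130 cytokine, had a log2 fold change of -0.10 with an edgeR adjusted p-value of 0.404. Tnf was at 66.3 ± 3.03 CPM (SD, n = 4) in the antagonist group and at 56.9 ± 5.12 CPM in the dual group. Its log2 fold change of -0.22 (SE 0.05) had an edgeR adjusted p-value of 0.0912. With an unadjusted edgeR p-value of 0.00082, Tnf was the only gene of the list under 0.05, where 6.81% of all genes tested were lower. It was also the only gene of the list called by the DESeq2 Wald test, at an adjusted p-value of 0.0107. That test called 374 genes in all.

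The inducers best known from the gut were near or below detection. Il22 had 0 counts in 7 libraries and 6 counts in library 4 of the dual group. Its relation to Reg3g was not tested. Il17f had 0 to 2 counts per library and Il17a was not listed. Il22ra1, the receptor chain for interleukin-22, had 3 to 20 counts per library and did not pass the filter. These low values are named after they were seen.

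For the receptors and signal transducers of these cytokines, 17 of 17 genes were listed, 16 passed the filter and 0 were called by edgeR. The median log2 fold change was -0.02, with 7 genes above 0 and 9 below. Il6st, which encodes gp130, had 802 ± 3.43 CPM (SD, n = 4) in the antagonist group and 849 ± 29.9 CPM (SD, n = 4) in the dual group, a log2 fold change of 0.08 with an edgeR adjusted p-value of 0.270. Stat3 was at 721 ± 12.6 CPM (SD, n = 4) in the first group and 706 ± 32.7 CPM in the second. Osmr, the oncostatin M receptor, and the kinase Jak2 had log2 fold changes of -0.03 and -0.019. The 3 genes of the list with an unadjusted edgeR p-value under 0.05 were Il6st, the receptor chain Il6ra (log2 fold change 0.11) and the ciliary neurotrophic factor receptor Cntfr (0.16), all higher in the dual group, where 5.98% of all genes tested were higher at that level. DESeq2 called 0 genes of this list. Il6ra and Cntfr were named after their values were seen.

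The list of STAT3-responsive genes, which holds acute-phase proteins with regulators such as Socs3 and Cebpd, included very abundant transcripts. All 11 genes passed the filter and 0 were called by edgeR, with 1 higher and 2 lower at an unadjusted p-value under 0.05 (5.98% and 6.81% of all genes tested). Their median log2 fold change was -0.07, with 8 genes below 0 and 3 above. Saa3, a serum amyloid protein, had 7905 ± 432 CPM (SD, n = 4) in the antagonist group and 7521 ± 166 CPM (SD, n = 4) in the dual group, with a log2 difference of -0.07. Lcn2, which encodes the siderophore-binding protein lipocalin-2, had 7330 ± 470 CPM (SD, n = 4) against 6841 ± 321 CPM (SD, n = 4), a log2 fold change of -0.10 with an edgeR adjusted p-value of 0.319. The protease inhibitor gene Serpina3n had a value above 0, 0.13 (SE 0.04), with an edgeR adjusted p-value of 0.154, and was the only gene of the list that DESeq2 called, at 0.0466. The transcription factor gene Cebpd had -0.03. Socs3, 1 of the 2 lower genes, had -0.14 (SE 0.05) with an edgeR adjusted p-value of 0.174.

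The list for sensing of LPS through TLR4 and MyD88 held 14 genes, which were all listed and all tested, and 0 were called by edgeR. The median log2 fold change was -0.0089, with 7 genes on each side of 0. Lbp, the LPS-binding protein, had 1047 ± 25.6 CPM (SD, n = 4) in the antagonist group and 1080 ± 63.1 CPM (SD, n = 4) in the dual group. The LPS co-receptor gene Cd14 was at 643 ± 17.0 CPM (SD, n = 4) in the first group and 656 ± 15.1 CPM in the second. Nfkbia, the inhibitor of NF-κB that is itself induced by it, had a log2 fold change of -0.17 (SE 0.04) with an edgeR adjusted p-value of 0.0686, and Tlr2 had -0.09 with 0.268. Without adjustment, 5 genes were lower and 1 was higher in the dual group at an edgeR p-value under 0.05. Of all genes tested, 6.81% were lower and 5.98% higher at that level. Myd88 was among the lower genes of the list, at -0.13 with an edgeR adjusted p-value of 0.186. The higher gene was Tlr4, at 0.14 with 0.268. DESeq2 called Nfkbia alone, at an adjusted p-value of 0.0051.

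**Figure D3:**
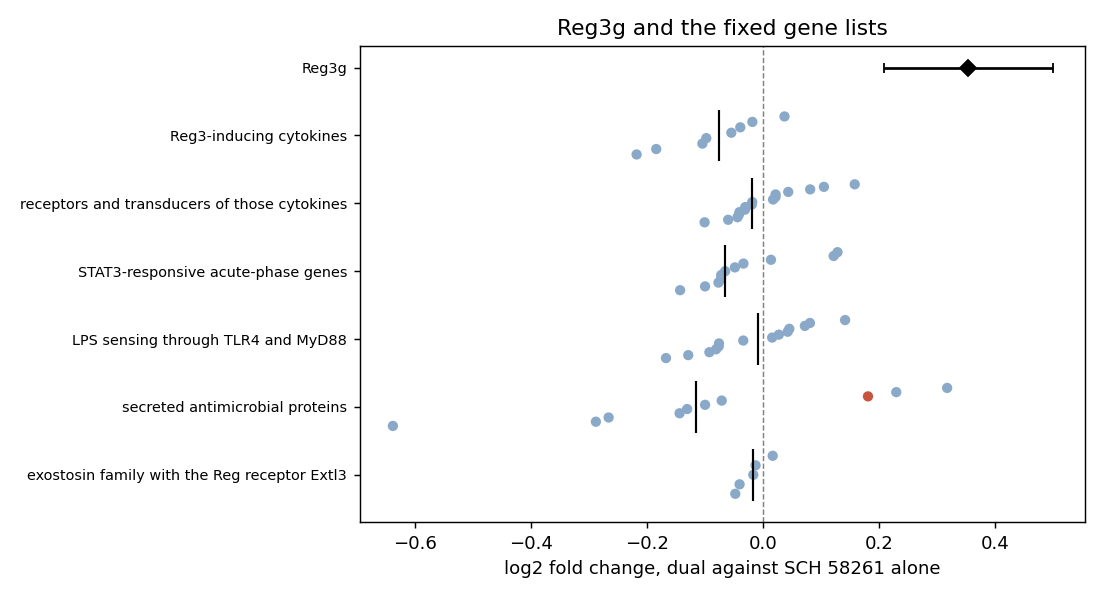
Each dot is 1 tested gene of a fixed list, placed by its log2 fold change (dual against antagonist group, x axis), with the median of each list as a black line and Reg3g as a diamond with its SE. Red marks a gene with an edgeR adjusted p-value under 0.05, which is Lyz2 alone. Reg3g, at 0.35, lies to the right of every gene of the lists, and the list medians lie between -0.12 and -0.0089. Reg3g was chosen from a comparison that held the antagonist libraries, so its place here is a description and not a test.

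Among the other secreted antimicrobial proteins, 13 of 16 genes were listed, 10 passed the filter and 1 was called, which is Lyz2. Of all genes tested, 0.208% were called. Lyz2, the lysozyme of myeloid cells, had 2477 ± 51.0 CPM (SD, n = 4) in the antagonist group and 2809 ± 89.8 CPM (SD, n = 4) in the dual group. The groups did not overlap, which held for 7.42% of all genes tested. Lyz2 rose by 0.18 on the log2 scale (SE 0.03), at an edgeR adjusted p-value of 0.0240. The call was lost without library 2, 3 or 4 of the antagonist group or library 3 of the dual group, with adjusted edgeR p-values from 0.0608 to 0.0932. The median log2 fold change of the list was -0.12, with 3 genes above 0 and 7 below. Without library 4 of the antagonist group this median was 0.015. The near copy of Lyz2, Lyz1, had 19 to 51 counts per library, and how reads of the pair were split is uncertain.

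S100a8, Slpi and Camp, low-level genes of the same list, were chosen after their values were seen. S100a8, a subunit of calprotectin, had 3.42 ± 0.550 FPKM (SD, n = 4) in the antagonist group and 4.25 ± 0.677 FPKM (SD, n = 4) in the dual group, a log2 fold change of 0.32 with an edgeR adjusted p-value of 0.389. Slpi, a secreted protease inhibitor, had 3.76 ± 0.330 FPKM (SD, n = 4) against 4.43 ± 1.31 FPKM (SD, n = 4). The cathelicidin gene Camp had 7.80 ± 0.633 FPKM (SD, n = 4) against 6.37 ± 0.730 FPKM (SD, n = 4), a log2 fold change of -0.29 with an edgeR adjusted p-value of 0.232. These low genes did not share a direction.

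The exostosin family, with the described Reg receptor Extl3, was tested with all 5 genes. None had an unadjusted edgeR p-value under 0.05, 0 were called by edgeR, and the median log2 fold change was -0.016. DESeq2 gave an adjusted p-value for 4 of the 5 and called 0. Extl3 was well detected at 37.0 ± 0.854 FPKM (SD, n = 4) in the antagonist group and 36.6 ± 1.06 FPKM (SD, n = 4) in the dual group. Its log2 fold change of -0.013 had a 95% confidence interval of -0.08 to 0.06. The glycosyltransferase genes Ext1, Ext2 and Extl2 had log2 fold changes of -0.05, -0.016 and 0.017.

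**Figure D4:**
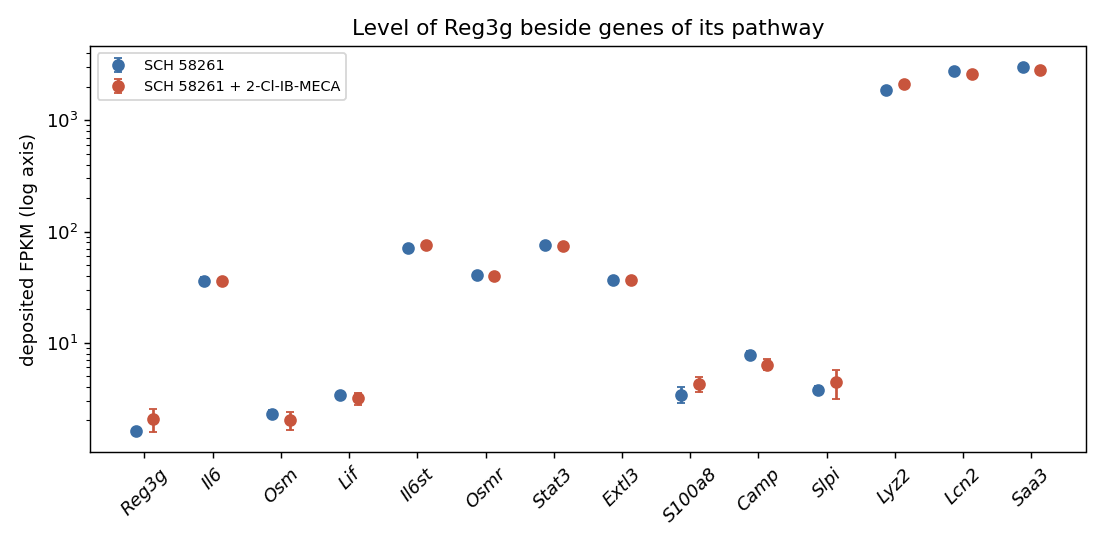
Deposited FPKM on a log axis for Reg3g and 13 genes of the lists, as mean with SD bars for the antagonist group (blue) and the dual group (red), 4 libraries each. Reg3g lies at 1.62 and 2.06 FPKM, near the cytokine gene Osm at 2.28 and 2.02 FPKM, while Extl3 lies near 37.0 FPKM and Saa3 near 3013 FPKM.

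The markers of other cell types were set beside Reg3g. Of the 5 neutrophil markers, Ly6g, Elane, Mpo and S100a9 were not listed, and S100a8 alone summed to 2.00 to 2.75 CPM in the antagonist group and 2.52 to 3.61 CPM in the dual group. Of the 8 markers of pancreatic acinar and gut epithelial cells, Cpa1 was not listed, and Cel, Ctrb1, Vil1 and Epcam stayed at 0 to 9 counts per library. The other 3 were detected, Cdh1 with 291 to 741 counts, Cela1 with 165 to 257 and Lgr5 with 24 to 54, and their log2 fold changes were -0.0085, -0.15 and -0.11. Of the 6 fibroblast markers 5 had log2 fold changes above 0, the direction of Reg3g, with a median of 0.11. None was called by edgeR or DESeq2. At an unadjusted edgeR p-value under 0.05, 3 were higher (Col3a1 at 0.14, Dcn at 0.11 and Lum at 0.23), beside 5.98% of all genes tested. That direction was not particular to fibroblast markers. Above 0 were 6 of 8 astrocyte markers (median 0.04), 3 of 4 endothelial (0.12) and 4 of 4 mural markers (0.04). All 3 tested ependymal and choroid plexus markers were also above 0 (median 0.06). Fewer were above 0 among the oligodendrocyte markers (1 of 6, median -0.04) and the tested neuronal markers (2 of 4, median -0.014). The fibroblast sums of libraries 1 to 4 of the dual group were 2986, 2369, 2760 and 2566 CPM. The microglial sums of the same libraries were 1128, 1171, 1155 and 1208 CPM. Of the 12 microglial markers, 5 were above 0 and 7 below in log2 fold change, with a median of -0.02. By unadjusted edgeR p-value under 0.05, 1 was higher and 3 were lower, beside 5.98% and 6.81% of all genes tested. Among them, the complement gene C1qa was called lower in the dual group, where 0.160% of all genes tested were called lower. It had a log2 fold change of -0.24 and an edgeR adjusted p-value of 0.0240. That call was lost without library 2, 3 or 4 of the antagonist group or library 3 of the dual group (0.0648 to 0.0932). DESeq2, which called 374 genes in all, called C1qa and Aif1 lower, and Aif1 had a log2 fold change of -0.21. Fcrls had the lowest log2 fold change of the list, -0.33, with an edgeR adjusted p-value of 0.0952. Csf1r, the receptor for colony-stimulating factor 1, had 0.11 and an edgeR adjusted p-value of 0.171. The part of these cells in the Reg3g values was not tested.

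Finally, the genes whose pattern over the 8 libraries was most like that of Reg3g were listed, as a description. Values were log2 CPM centred within each group, for 10715 protein-coding genes. The highest Pearson coefficients belonged to Safb (0.97), Gpsm2 (0.96), Nup188 (0.96), Ccdc9 (0.95) and Bcam (0.95), and the lowest to Alg14 (-0.96), Cpne3 (-0.96) and Zmat1 (-0.96). In all, 20 genes were at or above 0.9 and 25 at or below -0.9. The points share library, depth and composition, and the pattern of Reg3g is mainly the contrast of libraries 2 and 3 with library 4 of the dual group. Without centring, 1 of the 5 most similar genes stayed among the first 5, and 3 stayed when Spearman coefficients were used.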

How the data were processed

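Libraries were made from poly-T selected RNA and sequenced in pairs. Per the study's methods, reads were aligned to an Ensembl mouse genome with HISAT2. The submitters' processing notes name the build mm10 and featureCounts 1.5.0-p3 for counting. Whether strand was used is not given in the sources used here. The deposited counts are raw read counts per gene, not normalized or pooled. The deposited FPKM values were computed by the authors from counts and gene length. Their columns of fold changes and p-values were not used, nor were 9 columns of values of 3 control libraries that belong to no sample of the series, so the levels of vehicle-treated cells are not analysed here.

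The counts entered edgeR 4.0.16 under R 4.3.3 (filterByExpr with a minimum count of 10, TMM factors, quasi-likelihood F test, no covariates, Benjamini-Hochberg over 18756 genes, called at an adjusted p-value under 0.05). Levels are CPM on TMM-scaled library sizes, as mean ± SD over 4 libraries. Single genes were also compared by a two-sided exact permutation test. The fit was tested on simulated data. Alternatives in edgeR were size factors of the DESeq2 type (relative log expression), total counts only, no filter, a replicate block and leaving out each library. The Wald test of DESeq2 1.42.0 was a further alternative.

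The genes and lists were chosen with earlier results of these data known. Named genes were the Reg genes, the called genes of each list or else up to 4 of highest CPM, the leading markers, and the 5 most and 3 least similar to Reg3g (mean log2 CPM of at least 3, prior count 2). Some genes given with values lie outside this rule, such as Osm, Socs3, Myd88, Tlr4, Lum, Aif1, Fcrls and Csf1r. They were picked with the data known. Transcripts and coordinates are from GENCODE mouse annotation of GRCm38, and the coordinates of the listed Reg genes are the same in the deposited tables.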

Additional observations from a re-analysis of the deposited data

How the results depend on the processing

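For Reg3g, the direction was the same under all 13 alternatives, with log2 fold changes from 0.25 to 0.49. In the 12 that gave an adjusted p-value, all by edgeR, it stayed above 0.05, from 0.113 to 0.566. The DESeq2 Wald test gave 0.35 with an unadjusted p-value of 0.0220 and no adjusted value. That test also gave no adjusted value to some other tested genes of the lists, which it therefore could not call. Adjusted values were given for 6 of 8 cytokines, 15 of 16 receptors and transducers, and 13 of 14 LPS-sensing genes. They were given for 2 of 10 antimicrobial genes, 10 of 12 microglial markers and 5 of 6 fibroblast markers. With the replicate number as a block, Reg3g had 0.34 with an edgeR adjusted p-value of 0.349. Same-numbered libraries did not deviate together (correlations from -0.138 to -0.0441), while differently numbered pairs had -0.0729 to 0.147. These correlations gave no sign that the numbers pair the samples. They cannot show whether libraries shared a culture or day. The CPM difference of Reg3b, 0.0040 with all libraries, ranged from -0.0069 to 0.0135 when 1 library was left out, being below 0 without library 2 of the antagonist group or without library 1 or 2 of the dual group. For Reg3b, Reg1 and Reg4 the filter, the block and the Wald test do not enter the value, and for Reg3a nothing could be computed.

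The number of genes called, 39, was 366 without the filter, 374 by the DESeq2 Wald test and 17 with the replicate block. It ranged from 0 to 172 when 1 library was left out, with 0 called without library 4 of the antagonist group or library 3 of the dual group, 5 and 6 without libraries 2 and 3 of the antagonist group, and 172 without its library 1. The cause was not tested. Lyz2 was not called with the replicate block (edgeR adjusted p-value 0.0778). Tnf and Nfkbia were called lower without the filter (0.0037 and 0.0022) and by DESeq2 (0.0107 and 0.0051), Tnf also without library 4 of the dual group (0.0375) and Nfkbia without library 1 of the antagonist group (0.0177), and Serpina3n was called higher by DESeq2 (0.0466). Leaving out 1 library turned the sign of the log2 fold changes of Il6 (range -0.056 to 0.022), Jak2 (-0.037 to 0.011), Extl3 (-0.025 to 0.0047), Ext2 (-0.036 to 0.0031) and Nup188 (-0.054 to 0.012), none of them called. At 130 to 235 counts per library, counting error alone is 7.69% to 8.26% of the Reg3g level on average. At 0 to 2 counts, a small change or a fall of Reg3b is not detectable.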
